A study of Homo sapiens with 23 samples.

Results

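The genes described here are 10 members of the S100 family, *S100A14* and 9 relatives, taken from the 57875 genes listed for each sample. They were matched by symbol to Ensembl identifiers, and all 10 were found. The set was chosen by the measured level of *S100A14*, which was low in cells without *AGO1*, *AGO2* and *AGO3*, so that its own levels are given as a description with no test. The question was whether that low level extended to the S100 genes beside it on chromosome 1 and to other family members. The cells were HCT116, a line from a human colorectal carcinoma, either wild type or edited in 1 or more *AGO* genes, which encode the Argonaute proteins that carry miRNAs to target RNAs. Steady state RNA was sequenced from 3 biological replicates of wild-type cells, of *AGO1* knockout cells, of *AGO2* knockout cells, of double knockout cells (*AGO1/2*) and of triple knockout cells (*AGO1/2/3*), 15 samples in all. All 4 knockout lines were made from HCT116 cells by CRISPR editing with no other treatment, and all lines were grown in the same medium. Each genotype was 1 line, so that genotype and line cannot be told apart.

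S100 proteins are small calcium-binding proteins of the EF-hand type that act mostly as dimers. They bind other proteins inside the cell, among them annexins, myosin and cytoskeletal scaffolds, and some are released and act on receptors such as RAGE. Many of their genes sit side by side on the long arm of chromosome 1 next to genes of the epidermal barrier, and colorectal epithelium is known to express several of them. S100A14 and S100A16 are epithelial members that can bind each other.

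Total counts per sample ranged from 27709971 to 45271146. Levels are given as normalised counts, which put every sample at the mean depth. Errors are standard deviations (SD) over the 3 replicates. Levels of different genes are compared only after division by exon length, as normalised counts per kb. A gene was called higher or lower at an adjusted p at or under 0.05 in edgeR's quasi-likelihood test, fitted to 22842 genes in all 15 samples. *AGO1* RNA in the 3 lines edited at *AGO1* was 24.8% to 28.0% of the wild-type mean, and *AGO3* RNA in triple knockout cells was 46.1%. *AGO2* RNA was 70.4% of the wild-type mean in *AGO2* knockout cells, 83.4% in double knockout cells and 132% in triple knockout cells. An edited gene can still be transcribed, so that *AGO2* RNA does not check those labels. The study checked its knockout lines by DNA sequencing and reports that Western blots found the targeted proteins not expressed. Wild-type replicate 2 stood apart from the other wild-type samples for several genes below. For the members, calls against wild type that depended on it are given with and without it. Values of other genes are given with it only. The column headers of the *AGO2* knockout samples alone carry the word quasi, and whether these samples were quantified in another way is not given in the sources used here. Such a difference could not be told apart from the genotype. The summed level of 12 colorectal epithelial markers was 68855 to 79068 normalised counts in wild-type samples and 55809 to 71719 in triple knockout samples. *CDX1* was at or under 3 counts in every sample. The sum hides markers that went different ways. In triple knockout cells *GRHL2*, *ESRP1* and *EPCAM* were at 3.53%, 11.1% and 29.9% of the wild-type mean. *KRT8*, *KRT18* and *KRT19* were at 133%, 122% and 101%.

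*S100A14* (ENSG00000189334) lies on chromosome 1 from 153614255 to 153616986 on the minus strand (GRCh38, GENCODE v44). The wild-type samples had 3145, 4824 and 2151 normalised counts. The *AGO2* knockout samples had 1808, 1308 and 1512, and the *AGO1* knockout samples had 377, 1004 and 1255. The double knockout samples had 189, 372 and 701, and the triple knockout samples had 11.9, 11.6 and 10.1. Every knockout sample was below every wild-type sample. From high to low the order was wild type, *AGO2*, *AGO1*, double and triple knockout. The ranges of *AGO1* and double knockout samples overlapped and the other neighbours in that order did not. The deposited counts behind the triple knockout values were 14, 10 and 9, above the 3 counts taken here as the floor, so that some *S100A14* RNA was still detected. In bulk samples such as these, fewer cells with the RNA and less RNA per cell cannot be told apart.

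The means were 3373 ± 1351 normalised counts in wild-type cells (SD, n = 3) and 11.2 ± 0.942 in triple knockout cells (SD, n = 3), a ratio of 301. Against wild type, the log2 fold change of *S100A14* was -1.94 for the *AGO1* line (standard error, SE, 0.43), -1.13 for the *AGO2* line (SE 0.42), -3.01 for the double line (SE 0.45) and -8.21 for the triple line (SE 0.64). Over the alternative settings, leaving out single samples included, the value in triple knockout cells stayed between -8.48 and -7.89. Of the 22842 genes tested, 6 had a lower log2 fold change there than *S100A14*, and 3 did among the 16083 genes that averaged 1 CPM, a count scaled to library size, or more. In *AGO2* knockout cells, 1205 of 22842 genes had a lower value.

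**Figure D1:**
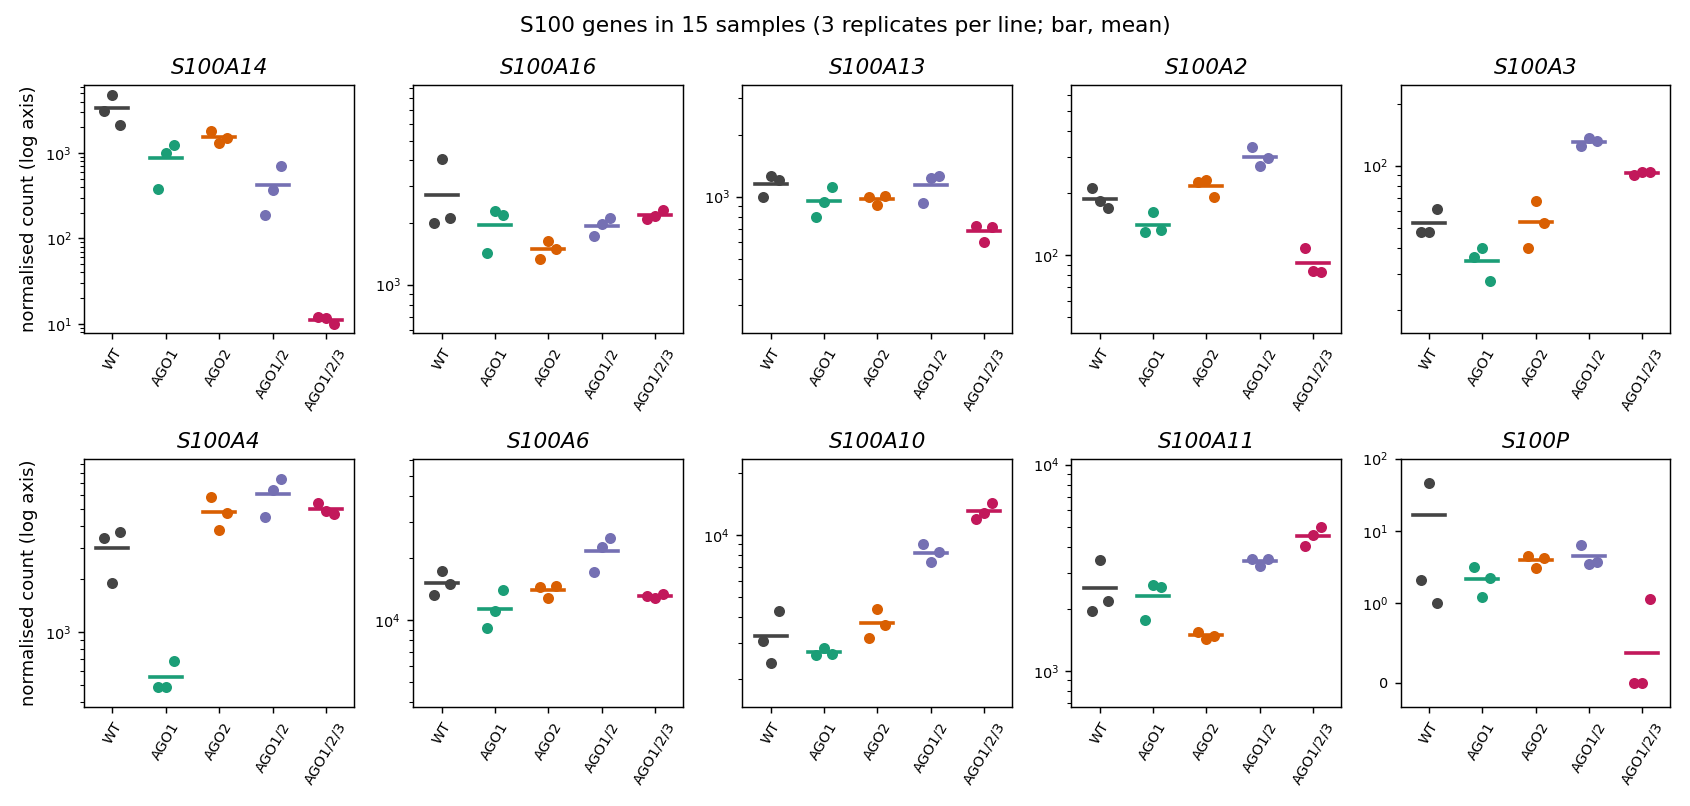
Normalised counts of the 10 S100 genes in each of the 15 samples, on log axes whose range differs between panels (for *S100P* the axis is linear below 1). Points are samples, bars are means of 3 replicates, and labels on the horizontal axis name wild-type (WT) cells and the edited *AGO* genes. The *S100A14* points of triple knockout cells sit between 10.1 and 11.9, while *S100A16* stays between 1330 and 4064 in all lines.

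The study itself presents *S100A14* as a down-regulated gene. It is also among the representative genes whose RNA levels the study crosschecked by quantitative PCR. The study places an AGO2 binding cluster in the 3′-untranslated region of *S100A14* and lists candidate sites for miR-128 and miR-484 there, so these miRNAs and the matching stretches are shown. The mature miRNA sequences are from RefSeq, with the seed, bases 2 to 8, in capitals.
hsa-miR-128-3p: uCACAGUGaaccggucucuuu
hsa-miR-484: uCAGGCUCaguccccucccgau
The 3′-untranslated region of the canonical *S100A14* transcript was 630 bases long and held 0 matches to bases 2 to 8 of either miRNA. It held 1 match to bases 2 to 7 of each, shown in capitals within 30 bases of the transcript (GENCODE v44, minus strand).
*S100A14*, bases 39 to 44 of the region, chr1:153614829-153614858, for hsa-miR-128-3p: tgttggggagagACTGTGggcctggagata
*S100A14*, bases 90 to 95 of the region, chr1:153614778-153614807, for hsa-miR-484: accctgtaccctAGCCTGcacctgtcctca
Of 12476 canonical transcripts with a 3′-untranslated region at least as long, 24.0% held ACTGTG and 25.6% held AGCCTG in their first 630 bases. Among the other members, *S100A3* held AGCCTG and *S100P* held GAGCCTG, the match to bases 2 to 8 of miR-484. These matches are of letters only.

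*S100A16* (ENSG00000188643, chromosome 1, 153606886 to 153613145) lies 1109 bases from *S100A14*. Its product is the S100 protein that can pair with S100A14. In wild-type samples it had 2000, 4064 and 2099 normalised counts, and the triple knockout samples had 2085, 2154 and 2303. Replicate 2 of the wild-type cells was high, and the other wild-type samples lay at the level of the triple knockout samples. The log2 fold change in triple knockout cells was -0.32 (SE 0.23, edgeR adjusted p = 0.29), and 0.06 without wild-type replicate 2. *S100A16* was called in *AGO2* knockout cells only, with 1330, 1629 and 1485 normalised counts and a log2 fold change of -0.88 (SE 0.23, edgeR adjusted p = 0.0186). Without wild-type replicate 2 that value was -0.49 (edgeR adjusted p = 0.0717), and without *AGO2* knockout replicate 3 the adjusted p was 0.0553. Per kb of exon, *S100A14* had 1.68 ± 0.375 times the level of *S100A16* in wild-type cells (SD, n = 3) and 0.00687 ± 0.000902 times its level in triple knockout cells (SD, n = 3).

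*S100A13* (ENSG00000189171; chromosome 1, 153618787 to 153631360) lies 1800 bases from *S100A14* on the other side. Its product takes part in the release of the growth factor FGF1. Its levels were 991, 1253 and 1210 normalised counts in wild-type samples and 722, 604 and 709 in triple knockout samples, with no overlap. *S100A13* fell in triple knockout cells by 0.76 on the log2 scale (SE 0.14, edgeR adjusted p = 0.000555), to 0.589 of the wild-type mean. It was not called in the other lines, where the log2 fold changes were -0.28 (*AGO1*), -0.25 (*AGO2*) and -0.02 (double knockout). The gene overlaps *S100A1* on the opposite strand and an lncRNA on its own strand, and reads shared with the lncRNA may be divided between them.

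*S100A2* (ENSG00000196754; chromosome 1, 153561108 to 153567890), which encodes an S100 protein of keratinocytes that binds p53, went up in one line and down in another. Wild-type samples had 212, 182 and 170 normalised counts. The double knockout samples had 336, 270 and 296, all higher, and the triple knockout samples had 108, 83.7 and 83.2, all lower. The double knockout differed from wild type by 0.68 on the log2 scale (SE 0.15, edgeR adjusted p = 0.00491) and the triple knockout by -1.03 (SE 0.16, edgeR adjusted p = 8.3e-05). Tested directly, triple knockout cells were 3.28-fold below double knockout cells (log2 fold change -1.70, SE 0.15, edgeR adjusted p = 2.09e-06).

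*S100A4* (ENSG00000196154; chromosome 1, 153543613 to 153550136), whose product binds nonmuscle myosin and is known from cell migration, was lowest in *AGO1* knockout cells. Wild-type replicates had 3426, 1912 and 3690 normalised counts and *AGO1* knockout samples 490, 488 and 686. The *AGO1* knockout level was 5.43-fold below the wild-type mean (log2 fold change -2.44, SE 0.25, edgeR adjusted p = 2.97e-05). In double knockout cells, which lack the same gene and *AGO2*, the samples had 4489, 6425 and 7426 normalised counts, all above wild type (log2 fold change 1.02, SE 0.24, edgeR adjusted p = 0.0077). The triple knockout samples had 5420, 4843 and 4691, with a log2 fold change of 0.73 (SE 0.24, edgeR adjusted p = 0.0226). That call was lost without wild-type replicate 2, the lowest wild-type sample (0.46, edgeR adjusted p = 0.0972), without triple knockout replicate 1 (0.64, 0.077) and without its replicate 3 (adjusted p = 0.052). In *AGO2* knockout cells the log2 fold change was 0.67 (edgeR adjusted p = 0.0583), and all 3 samples were above wild type. It was called higher there in 5 of 21 alternatives, among them DESeq2 (DESeq2 adjusted p = 0.0261). The *AGO1* and double knockout samples did not overlap, and the difference between these lines was not tested.

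*S100A3* (ENSG00000188015; chromosome 1, 153547329 to 153549258), a zinc-binding member known from hair, lies within the *S100A4* locus on the same strand, so that reads may be divided between the pair. The wild-type replicates gave 47.8, 47.6 and 62.0 normalised counts. The double knockout samples had 124, 137 and 132 and the triple knockout samples 89.8, 93.0 and 93.4, all above wild type. The difference from wild type was 1.32 in the double knockout (SE 0.19, edgeR adjusted p = 0.000225) and 0.81 in the triple knockout (SE 0.19, edgeR adjusted p = 0.00337) on the log2 scale. In *AGO1* knockout cells it was -0.60 (edgeR adjusted p = 0.0943), with 36.2, 40.0 and 27.7 normalised counts. *S100A3* was thus far less abundant per kb than *S100A4*, at 62.4 ± 9.84 against 3181 ± 1014 normalised counts per kb in wild-type cells (SD, n = 3).

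*S100A6* (ENSG00000197956; chromosome 1, 153534599 to 153536244), also named calcyclin, was the most abundant member per kb in all 5 lines. It took 50.6% of the summed level of the 10 members per kb in wild-type cells and 33.4% in triple knockout cells. Wild-type cells had 13196, 17318 and 14920 normalised counts and the double knockout samples 17124, 22594 and 25129, so that the ranges overlapped. The log2 fold change in double knockout cells was 0.51 (SE 0.16, edgeR adjusted p = 0.0361), and 10 of 22 alternatives ended that call, with adjusted p up to 0.146. These included leaving out wild-type replicate 1 or 3 (0.141 and 0.0824), double knockout replicate 2 or 3 (0.115 and 0.146), triple knockout replicate 1 or 2 (0.0505 and 0.0522) and *AGO2* knockout replicate 3 (0.0524). In triple knockout cells *S100A6* had 13162, 12738 and 13315 normalised counts and a log2 fold change of -0.21 from wild type (edgeR adjusted p = 0.31).

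*S100A10* and *S100A11* lie farther away on chromosome 1, with start sites 1623.1 and 1569.1 kb from that of *S100A14*. *S100A10* (ENSG00000197747; chromosome 1, 151982915 to 151993859) encodes the calcium-independent partner of annexin A2. The levels were 3045, 2386 and 4256 normalised counts in wild-type samples, 8988, 7368 and 8246 in double knockout samples and 11905, 12718 and 14324 in triple knockout samples. The 3 ranges did not overlap. *S100A10* was 2.54-fold higher in double (log2 fold change 1.34, SE 0.17, edgeR adjusted p = 9.64e-05) and 4.02-fold higher in triple knockout cells (log2 fold change 2.01, SE 0.18, edgeR adjusted p = 4.38e-07). In the single knockout lines the log2 fold changes were -0.26 in *AGO1* and 0.21 in *AGO2* knockout cells, and neither was called. Its share of the members' summed level per kb was 10.3% in wild-type and 31.8% in triple knockout cells, while that of *S100A14* was 8.56% and 0.0218%.

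*S100A11* (ENSG00000163191; chromosome 1, 152032506 to 152047907), whose product binds annexin A1, rose in triple and fell in *AGO2* knockout cells. The wild-type values were 1952, 3449 and 2193 normalised counts, of which replicate 2 was again the highest. The triple knockout samples had 4011, 4567 and 4993, all above wild type, with a log2 fold change of 0.84 (SE 0.18, edgeR adjusted p = 0.00189). The *AGO2* knockout samples had 1548, 1431 and 1482, all below wild type, with a log2 fold change of -0.77 (SE 0.18, edgeR adjusted p = 0.0128). That call was lost without *AGO2* knockout replicate 2 (edgeR adjusted p = 0.0538). Over single samples left out, the log2 fold change in *AGO2* knockout cells ranged from -0.94 to -0.50. In double knockout cells the log2 fold change of 0.43 was not called (edgeR adjusted p = 0.132), but was 0.70 without wild-type replicate 2 (edgeR adjusted p = 0.00542).

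*S100P* (ENSG00000163993; chromosome 4, 6693878 to 6697170), which encodes an S100 protein that binds ezrin and is known from carcinomas, did not pass the filter on low counts and was not tested. Its deposited counts were 2, 44 and 1 in the wild-type samples, so that replicate 2 held nearly all of them. They were 3, 1 and 2 in *AGO1*, 6, 4 and 5 in *AGO2*, 6, 3 and 3 in double and 0, 0 and 1 in triple knockout samples. A count of 0 allows up to 3 counts, and these limits cover counting error only.

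Counted over the 8 tested members other than *S100A14*, fewer were called in the single than in the double and triple knockout lines. In *AGO1* knockout cells 1 of 8 was called, *S100A4* (lower), where 8.68% of all tested genes were called, 3.17% higher and 5.50% lower. In *AGO2* knockout cells 2 of 8 were called, *S100A16* and *S100A11* (both lower), against 19.3% of all genes, 8.55% higher and 10.8% lower. In double knockout cells 5 of 8 were called, all higher (*S100A2*, *S100A3*, *S100A4*, *S100A6* and *S100A10*), against 16.7% of all genes called either way, 8.37% higher and 8.35% lower. In triple knockout cells 6 of 8 were called, 4 higher (*S100A3*, *S100A4*, *S100A10* and *S100A11*) and 2 lower (*S100A13* and *S100A2*), against 40.1% of all genes, 20.3% higher and 19.8% lower. The median log2 fold change of the 8 members was -0.42 for *AGO1*, -0.04 for *AGO2*, 0.60 for double and 0.26 for triple knockout cells, and over all genes tested it was between -0.02 and 0.01 in each. These 4 comparisons share the wild-type samples. With at least a 2-fold change also required, the calls left were 1 of 8 in *AGO1*, 0 of 8 in *AGO2*, 3 of 8 in double and 2 of 8 in triple knockout cells, against 3.40%, 5.83%, 5.78% and 15.9% of all genes under the same rule.

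**Figure D2:**
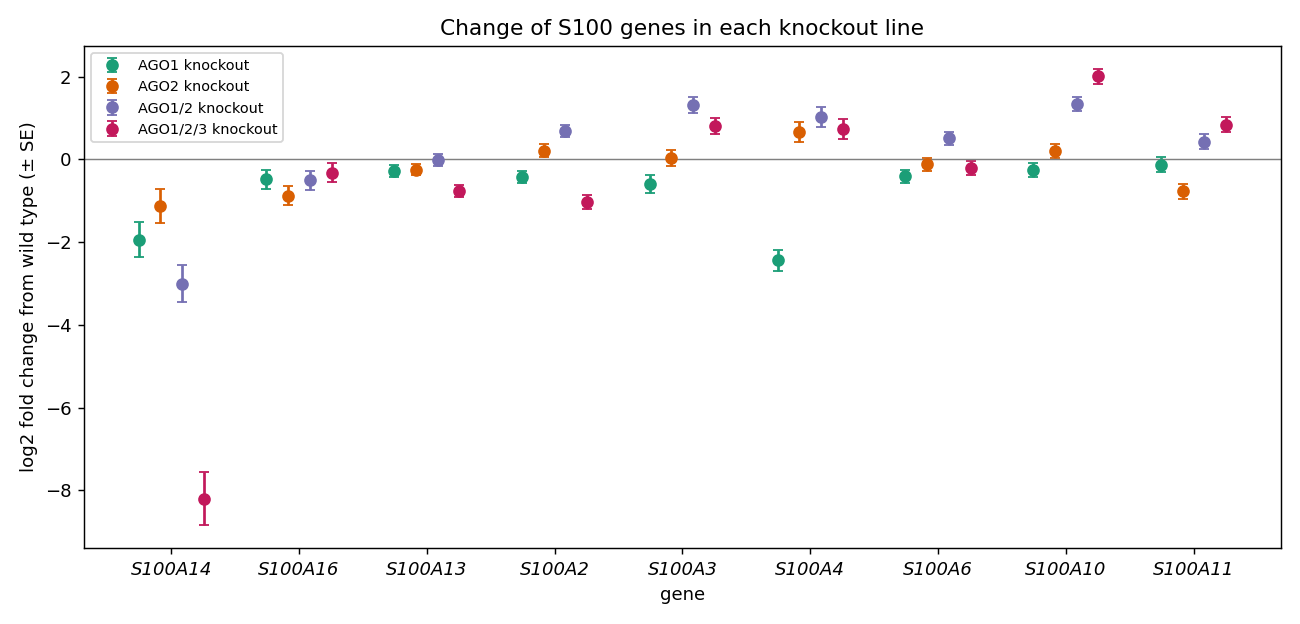
Log2 fold change from wild-type cells (vertical axis) of *S100A14* and the 8 other tested members in the 4 knockout lines, with model standard errors. *S100A14* lies below 0 in all 4 lines and reaches -8.21 in triple knockout cells, where the other members lie between -1.03 and 2.01.

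The step from double to triple knockout cells, which differ in *AGO3* by label, was tested directly. Of the 8 members 4 were called, 1 higher and 3 lower, against 22.0% of all genes, 11.9% higher and 10.0% lower. At least a 2-fold change was left for 1 of them, *S100A2*, against 6.59% of all genes. *S100A10* was higher (log2 fold change 0.66, SE 0.17, edgeR adjusted p = 0.0118), a call lost without triple knockout replicate 3 (0.0658) or double knockout replicate 2 (0.0636). *S100A2* was lower, as given above. *S100A13* (log2 fold change -0.75, SE 0.14, edgeR adjusted p = 0.00153) and *S100A6* (-0.73, SE 0.16, edgeR adjusted p = 0.00375) were lower too, and in both the triple knockout samples lay below all double knockout samples. For *S100A14* the same difference was -5.20 (SE 0.64), from 421 ± 259 to 11.2 ± 0.942 normalised counts (SD, n = 3 each). *S100A16* differed by 0.18 (edgeR adjusted p = 0.645).

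Of 11 further S100 genes, *S100A1* and *S100A5* passed the filter on low counts, and the other 9, among them *S100A8* and *S100A9*, did not. *S100A1* (ENSG00000160678), a calcium sensor of muscle, overlaps *S100A13* on the opposite strand at chromosome 1, 153627926 to 153632039. It had 11.4, 13.8 and 14 normalised counts in wild-type samples and 2 deposited counts in each triple knockout sample. The summed counts scaled for depth were 15.7% of those in wild-type cells, with an exact 95% interval of 5.41% to 37.3% that covers counting error only. In *AGO1* knockout cells the deposited counts were 3, 4 and 7. With so few counts *S100A1* passed the filter through the lines where it was higher, and no call is given for it.

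*S100A5* (ENSG00000196420; chromosome 1, 153537147 to 153541765) lies between *S100A6* and *S100A4*. It had 56.2, 32.8 and 65.0 normalised counts in wild-type samples and 9.30, 9.70 and 22.1 in *AGO1* knockout samples (log2 fold change -1.90, SE 0.40, edgeR adjusted p = 0.00783). In double knockout samples it had 99.9, 133 and 116 (log2 fold change 1.17, SE 0.31, edgeR adjusted p = 0.0179). *S100A5* and *S100A4*, next to each other, were thus both lower in *AGO1* and both higher in double knockout cells, and *S100A3* beside them had -0.60 and 1.32 in these lines, of which the second was called.

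Within 500 kb of the *S100A14* start, 59 genes other than the 10 members are annotated, and 24 passed the filter. In triple knockout cells 12 of the 24 were called, 1 higher and 11 lower, against 40.1% of all genes called and 19.8% called lower. Their median log2 fold change was -0.27, against -0.01 over all genes tested. The 11 lower and this median include *S100A1* (mean 0.23 CPM), for which no call is given above. They also include the lncRNAs ENSG00000271853, ENSG00000272030 and ENSG00000284738, with means of 0.776, 0.993 and 0.389 CPM. The 15 neighbours with a mean of at least 1 CPM had log2 fold changes from -1.16 to 0.63. The lowest of these was *RPS27*, a ribosomal protein gene 376.5 kb away (-1.16, SE 0.13), followed by *CREB3L4* (-0.68), *INTS3* (-0.60), the pseudogene ENSG00000223599 (-0.60), *JTB* (-0.54), *RAB13* (-0.46) and *DENND4B* (-0.39), all called lower. The zinc transporter gene *SLC39A1* was called higher (0.63, SE 0.12). Nearer to *S100A14*, the lncRNA ENSG00000271853, whose lowest coordinate is 12.1 kb away and which overlaps *S100A13*, had a log2 fold change of -0.93 (SE 0.27, edgeR adjusted p = 0.0118). The median over 692 genes of the long arm of chromosome 1 with at least 1 CPM was 0.07. Of the 24 neighbours 4 were called in *AGO1* and in *AGO2* knockout cells, and 5 in double knockout cells, against 8.68%, 19.3% and 16.7% of all genes. The 4 in *AGO1* knockout cells include *S100A1*. The *AGO2* and double knockout counts were thus near the share over all genes.

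**Figure D3:**
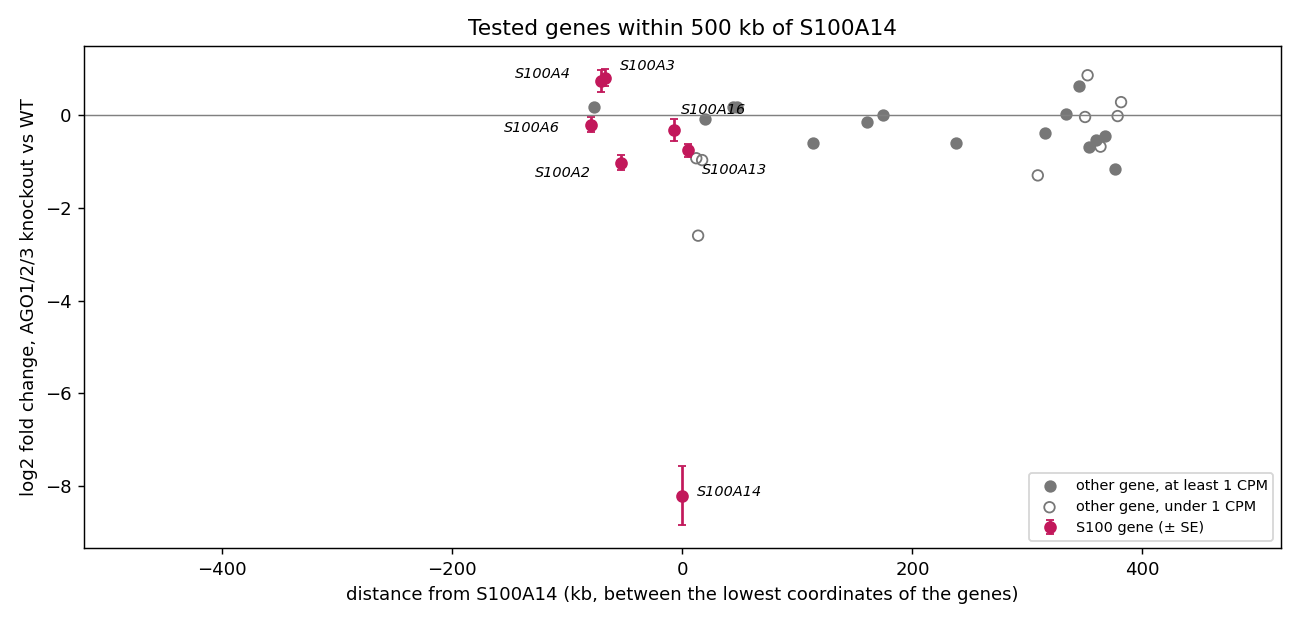
Log2 fold change in triple knockout against wild-type cells (vertical axis) of tested genes within 500 kb of *S100A14*, by distance from it in kb. Named points are the listed S100 members with model standard errors. Grey points are other genes, *S100A1* and *S100A5* among them, open where the mean was under 1 CPM. *S100A14* lies at -8.21, and grey points of at least 1 CPM lie between -1.16 and 0.63.

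The genes whose levels over the 15 samples were most like those of *S100A14* lie on other chromosomes. Likeness was measured as Pearson's r of log2 CPM over 15 samples that share libraries and fall into 5 lines, among 16083 genes with at least 1 CPM, and is given as a description. The 5 genes were *VGF* (r = 0.991), which encodes a secreted neuropeptide precursor, *CDH1* (0.987), which encodes E-cadherin of epithelial junctions, *BICDL2* (0.981), *CLDN7* (0.979), which encodes a tight-junction claudin, and the snoRNA host gene *SNHG29* (0.977). By Spearman's correlation 2 of these were among the 5 highest. The levels of *CDH1* in triple knockout cells were 8.77% of the wild-type mean, those of *VGF* 2.28%, of *BICDL2* 3.96%, of *CLDN7* 10.2% and of *SNHG29* 42.5%. For *S100A14* the share was 0.332%. Wild-type replicate 2 had the highest level of all wild-type samples for *S100A14* and for each of these 5 genes.

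**Figure D4:**
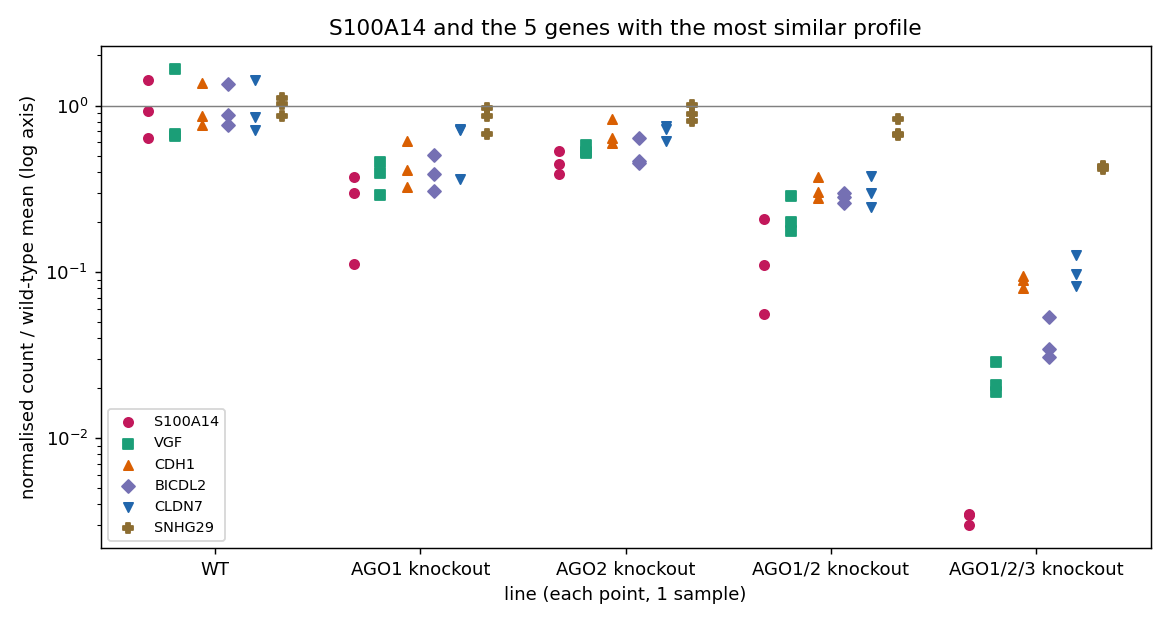
Normalised count of *S100A14* and its 5 most similar genes in each sample, divided by the gene's wild-type mean (log axis), for wild-type (WT) cells and 4 knockout lines. All 6 genes are lowest in triple knockout cells, from 0.332% of the wild-type mean for *S100A14* to 42.5% for *SNHG29*.

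For the members themselves the likeness ranged widely. Over the same 15 samples *S100A13* had r = 0.802 with *S100A14* and *S100A2* had 0.612. By r these 2 members ranked 1096 and 2679 among the genes compared, so that many other genes were more like *S100A14*. The neighbour *S100A16* had 0.014, and *S100A6* had 0.154. *S100A4*, *S100A3*, *S100A11* and *S100A10* had -0.262, -0.525, -0.695 and -0.862.

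Genes for proteins that bind S100 proteins or act with them were counted from a list of 19, of which 18 were tested (*TLR4* was not). In triple knockout cells 12 were called higher and 2 lower, against 20.3% and 19.8% of all genes, and the median log2 fold change was 0.51. In double knockout cells 9 were higher and 2 lower, against 8.37% and 8.35% of all genes, with a median of 0.36. In *AGO1* knockout cells 2 were called, both lower (*EZR* and *AGER*), and in *AGO2* knockout cells 4 were called. These are 11.1% and 22.2% of the partner genes, near the 8.68% and 19.3% of all genes. In the latter, *CACYBP* (log2 fold change 1.11) and *SUGT1* (0.49), which encode binding partners of S100A6, were higher, and *ANXA1* (-0.72) and *AGER* (-1.49) were lower. For *CACYBP* the wild-type samples had 3373, 1610 and 4201 normalised counts. Replicate 2 was thus the lowest, and no value without it is given.

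Among the annexins, which bind membranes in the presence of calcium, *ANXA2* rose, as did the gene of its partner, *S100A10*. It had 30021 normalised counts on average in wild-type and 65618 in triple knockout cells (log2 fold change 1.13, SE 0.12, edgeR adjusted p = 3.85e-06), after a log2 fold change of 0.50 in double knockout cells. *ANXA6* (1.79), *ANXA5* (1.10) and *ANXA11* (0.55) were also called higher in triple knockout cells. *ANXA1*, the partner of *S100A11*, was not called there (0.28, edgeR adjusted p = 0.266). *AHNAK*, which encodes a giant scaffold that the annexin A2 and S100A10 complex binds, rose by 1.61 (SE 0.13, edgeR adjusted p = 2.01e-07).

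Of the cytoskeletal partners, *MYH9*, the nonmuscle myosin chain that S100A4 binds, rose by 1.28 on the log2 scale in triple knockout cells (SE 0.11, edgeR adjusted p = 3.21e-07), from 18414 to 44808 normalised counts. The scaffold gene *IQGAP1* rose by 1.13, *CAPZA1* and *CAPZB* of the actin capping protein by 0.47 and 0.39, and *EZR*, the ezrin gene, by 0.46. *FGF1*, whose product S100A13 helps to release, had 12.0 normalised counts in wild-type and 40.1 in triple knockout cells (log2 fold change 1.70, SE 0.48, edgeR adjusted p = 0.01). *SYT1*, which acts in the same release, fell by 1.19 (SE 0.31, edgeR adjusted p = 0.00608). Of the receptors, *BSG* rose by 0.84 and *AGER*, which encodes RAGE, fell by 2.07 (SE 0.24, edgeR adjusted p = 6.68e-06) from 228 to 53.0 normalised counts.

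**Figure D5:**
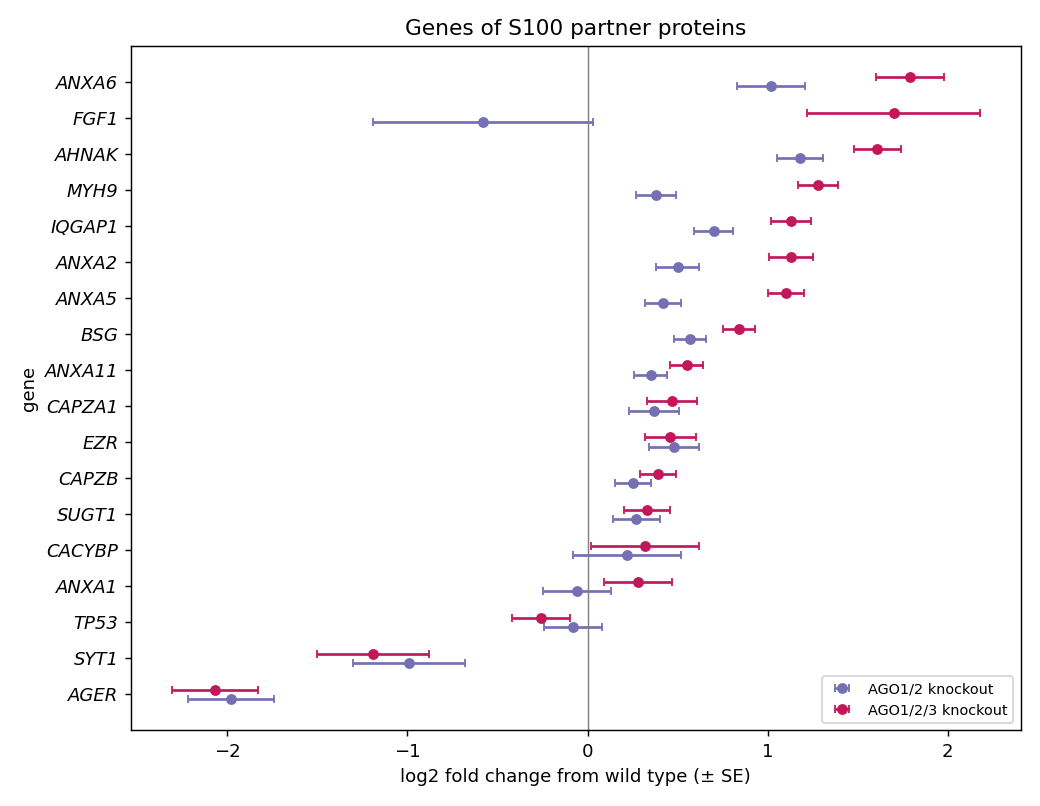
Log2 fold change from wild-type cells (horizontal axis, with model standard errors) of 18 tested genes for partner proteins of the S100 family, in double and triple knockout cells. In triple knockout cells *ANXA6* lies highest at 1.79 and *AGER* lowest at -2.07.

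Markers of cell state also moved in triple knockout cells. Leaving out *CDH1* and *CLDN7*, which were named for their likeness to *S100A14*, 8 colorectal epithelial markers were tested. In triple knockout cells 5 were lower and 1 higher, against 19.8% and 20.3% of all genes. The lower ones were *GRHL2* (log2 fold change -4.82), *ESRP1* (-3.17), *KRT20* (-2.28), *EPCAM* (-1.74) and *CDX2* (-0.58), and *KRT8* (0.41) was higher. *KRT20* was near the floor in triple knockout cells, with a mean of 3.5 normalised counts against 18.5 in wild-type cells. In *AGO1*, *AGO2* and double knockout cells 0, 2 and 2 of the 8 were higher and 3, 1 and 3 lower. Leaving out *COL3A1*, which was at or under 3 counts in each wild-type sample, 7 mesenchymal markers were tested. Of these 3 were higher (*VIM* by 3.64, *ZEB1* by 2.75 and *FN1* by 2.59 on the log2 scale) and 0 lower, against 20.3% and 19.8% of all genes. Counted either way, the 42.9% called was near the 40.1% of all genes. In *AGO1*, *AGO2* and double knockout cells 3, 0 and 2 of the 7 were higher and 1, 3 and 1 lower. The shares of all genes there were 3.17%, 8.55% and 8.37% higher and 5.5%, 10.8% and 8.35% lower. *PDGFRB*, among the 3 lower in *AGO2* knockout cells, had 4 summed counts in that line and 46 in wild-type cells. The summed level of the 9 mesenchymal markers was 1763 to 1936 normalised counts in wild-type and 7324 to 8154 in triple knockout samples, with *LUM* at or under 3 counts throughout. The summed leukocyte markers were 81 to 188 and 307 to 358 in these lines, with *CD3E* at or under 3 counts. These markers went different ways, with means of 4.16 and 249 normalised counts for *LYZ*, 110 and 51.2 for *CD68* and 32.1 and 32.5 for *PTPRC*. The 3 endothelial markers summed to 76 to 84 and 73 to 87, and the 5 squamous markers to 11 to 17 and 15 to 17. The part of these changes in the S100 results was not tested.

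Promoter stretches are shown because ZEB1, whose RNA was higher, is known to bind the letters CACCTG or, on the other strand, CAGGTG. RefSeq promoters (GRCh38.p14, 300 bases each, 250 of them before the start) were given for all 10 members, in 14 entries. A match on either strand was found in 6 of the 14 entries, which belong to *S100A14*, *S100A16*, *S100A2*, *S100A4* and *S100P*, and in 20.6% of all 35116 promoter entries. The letters TATAA, searched on both strands, were found in 5 of the 14 entries and in 20.4% of all entries. Capitals mark the matched letters.
*S100A14*, CAGGTG, 14 bases before the start, chr1:153616322-153616351, minus strand: aagagctgagctCAGGTGagctggctcctc
*S100A14*, TATAA, 29 bases before the start, chr1:153616337-153616366, minus strand: ccttcccccaggTATAAgagctgagctcag
*S100A16*, CAGGTG, 191 bases before the start, chr1:153613311-153613340, minus strand: atcccagtgaccCAGGTGagaaaggcaggt
*S100A2*, CACCTG, 18 bases before the start in one of its entries, chr1:153563888-153563917, minus strand: cagtgtacccatCACCTGgcacctctgcag
*S100A4*, CACCTG, 164 bases before the start, chr1:153545953-153545982, minus strand: cccacgggtgccCACCTGggaacaggaggc
The pair of *S100A14* windows overlap. The matches are of letters only, and binding was not measured here.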

How the data were processed

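RNAseq was analysed for 15 samples of 5 HCT116 lines, and the eCLIP samples were not analysed here. The authors depleted ribosomal RNA, sequenced stranded libraries from both ends, aligned the reads to hg38 with STAR and quantified them with Salmon. They deposited estimated counts (expected counts) per Ensembl gene and sample, unscaled for depth, and 30.8% to 33.8% of the values of a sample were not whole. The submitters' processing notes name STAR 2.5.3a and Salmon 0.11.0, while the methods name other versions. Total counts ranged from 27709971 to 45271146, and 0 of 105 pairs of samples were identical.

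Estimated counts were rounded, filtered with filterByExpr and normalised by TMM. A model with one mean per line (edgeR 4.0.16, R 4.3.3) was fitted to all samples, and 5 comparisons were tested by quasi-likelihood with Benjamini-Hochberg adjustment over 22842 genes. The study names DESeq2, which was run (1.42.0) as an alternative. Tables were made with Python 3.11.15 and pandas 2.3.3, and the fit was tested on simulated data. Positions and exon lengths are those of GENCODE v44, where 57167 of the 57875 identifiers were found. Log2 CPM for likeness used a prior count of 2. Replicates are those of the labels. With 3 samples per line an exact permutation test cannot go below p = 0.1, and none was used.

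Named were all members, other S100 genes that passed the filter, partner genes and neighbours of at least 1 CPM called in triple knockout cells, the nearest tested neighbours, and the 5 genes most like *S100A14*. *CACYBP*, *SUGT1*, *ANXA1* and single markers were named after their values were seen. The members and lists were chosen with earlier results of these data known. Alternatives were DESeq2, its size factors, total counts only, no filter, the 6 samples compared, the replicate number as a block, no *AGO2* knockout samples, a 2-fold minimum, Spearman's correlation or a prior count of 0.5 for likeness, and each sample left out.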

Additional observations from a re-analysis of the deposited data

Results flagged for a closer look

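Several members differed between lines. Between triple and double knockout cells the difference itself passed edgeR's test for *S100A13* (log2 fold change -0.75), *S100A2* (-1.70), *S100A6* (-0.73) and *S100A10* (0.66). In other cases every sample of one line was below and every sample of another above all wild-type samples, and the difference was not tested. For *S100A2*, *AGO1* knockout cells (log2 fold change from wild type -0.42) stood against double knockout cells (0.68), as did triple knockout cells (-1.03), for which the difference was tested above. For *S100A3*, *AGO1* knockout cells (-0.60) stood against double (1.32) and triple knockout cells (0.81). For *S100A4*, *AGO1* knockout cells (-2.44) stood against *AGO2* (0.67), double (1.02) and triple knockout cells (0.73). For *S100A11*, *AGO2* knockout cells (-0.77) stood against triple knockout cells (0.84).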

How the results depend on the processing

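Of 981 log2 fold changes of single members under alternative settings, 932 kept their direction and, where tested, their side of the threshold, 20 newly passed it, 19 lost it and 10 changed sign, none of these called. The sign changes were in *S100A11* in *AGO1* knockout cells (0.03 without *AGO1* replicate 1 and 0.16 without wild-type replicate 2, range over samples left out -0.28 to 0.16), *S100A3* in *AGO2* (-0.09 by total counts, range -0.19 to 0.17), *S100A13* in double (range -0.12 to 0.09) and *S100A16* in triple knockout cells (range -0.52 to 0.06). The counts of called genes moved most with a 2-fold minimum, which by construction removes calls. In the order *AGO1*, *AGO2*, double, triple and triple against double, it left 1, 0, 3, 2 and 1 members, 2, 0, 1, 3 and 3 neighbours and 1, 2, 3, 9 and 1 partner genes. With the 6 samples compared alone, 1 member was called in *AGO2*, 2, 1 and 2 neighbours in *AGO1*, *AGO2* and double, and 1, 2 and 5 partners in the same lines, all fewer, while members called in triple against double went from 4 to 6. By total counts 4 members were called in *AGO1* and 7 neighbours in *AGO2*, and without the filter 2 members were called in *AGO1*. Of the members that passed the filter, only *S100A4* was called in that last fit. It also included *S100P*, whose wild-type counts were 2, 44 and 1. Triple against double gave 5 neighbours by DESeq2 and 5 without the filter. The causes were not tested. With single samples left out, members called ranged from 1 to 2, 1 to 3, 4 to 6, 5 to 6 and 3 to 6 in the order above, neighbours from 2 to 4, 2 to 5, 3 to 5, 10 to 12 and 3 to 9, and partners from 1 to 2, 1 to 5, 6 to 11, 11 to 15 and 5 to 8. With the replicate number as a block, 3 members were called in *AGO2* knockout cells, among them *S100A4* (edgeR adjusted p = 0.0462), and the other counts stayed within 1 of those given. The mean correlation between deviations of samples was -0.0114 for the same number (range -0.394 to 0.486) and 0.00563 for different numbers (-0.553 to 0.489). Means near 0 with such ranges cannot show whether samples of the same number were handled together. Counts near the floor limit *S100P* and *S100A1*, and *S100A1* is among the neighbours counted here. They also limit *PDGFRB* in *AGO2* and *KRT20* in triple knockout cells, which are counted among the markers.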
